A study of Mus musculus with 24 samples.

Results

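The proneural and neuronal genes of the basic helix-loop-helix (bHLH) family described here were followed through CUT&RUN peak lists of the mouse retina. The members were taken by symbol: Neurog2, Atoh7, Neurod1, Neurod2, Neurod4, Olig2, Ptf1a, Bhlhe22 and Bhlhe23, 9 of 21887 protein-coding genes in the RefSeq table of GRCm38.p6. All 9 symbols were found, and no member was left out by a filter. A member was counted as having a peak where a peak overlapped the gene or the 5 kb on either side of it by 1 bp or more, and 50 kb was the second distance.

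In CUT&RUN an antibody guides a nuclease to its target on chromatin, and the DNA released there is sequenced. The series holds 24 libraries of wild-type retina, taken on day 2 (P2) or day 17 (P17) after birth, with no treatment named in the labels. Either age has 4 SOX8 libraries, made with antibodies of GeneTex and Proteintech, and 2 each for SOX9, the promoter mark H3K4me3, the promoter and enhancer mark H3K27ac, and nonspecific IgG. The labels give 600000 nuclei per reaction and neither the mouse strain nor the number of animals. The data are 8 peak lists, 1 for each target and age, so no value below has a replicate error and no test between ages or targets was made. In whole retina, fewer cells with a signal and less signal per cell cannot be told apart.

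bHLH factors of this class pair with broadly expressed E proteins and bind short E-box sequences. In the developing retina, Neurog2 and Olig2 are made in dividing progenitors close to their last divisions, and Atoh7 is needed for retinal ganglion cells. Neurod1 acts in photoreceptors and amacrine cells, Neurod4 in amacrine and bipolar cells, and Neurod2 and Ptf1a in amacrine cells, with Ptf1a also needed for horizontal cells. Bhlhe22 acts in subsets of amacrine and cone bipolar cells, and Bhlhe23 in rod bipolar cells. SOX9 and its relative SOX8 are factors of progenitors and Müller glia, the main glial cells of the retina.

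The lists differ widely in length. For P2 and P17 in turn, SOX8 has 2653 and 2400 peaks, SOX9 5476 and 2855, H3K4me3 9134 and 9629, and H3K27ac 287845 and 29909. The tissue label was compared with marker genes through H3K4me3, which lay at 49.3% of all protein-coding genes at P2 and 50.9% at P17. It was present at 7 of 9 retinal progenitor and neuron markers at P2 and at 9 of 9 at P17. It was present at 3 of 4 Müller glia markers at P2 (Rlbp1, Glul and Slc1a3, without Aqp4) and at 1 of 4, Glul, at P17. None of 4 endothelial markers (Pecam1, Cdh5, Cldn5 and Tek) and none of 5 markers of other tissues had H3K4me3 at either age. Of 4 microglia markers only Aif1 had it, and of 4 pigment epithelium markers only Best1, at both ages. H3K27ac was less selective at P2, when it lay at 81.8% of all protein-coding genes. It then lay at 4 of 4 endothelial, 4 of 4 microglia and 3 of 4 pigment epithelium markers. Of 5 markers of other tissues, 1 had it at P2, Ins2. With so high a background, these P2 counts say little about such cells. At P17 it lay at 1 of 4, 1 of 4, 1 of 4 and 0 of 5, against 57.0% of all genes.

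The RefSeq promoter table (GRCm38.p6) held 8 of the 9 members. The 250 bases before the start site are shown for the 4 members whose promoter lay wholly inside a P2 SOX9 peak and, as a contrast, for Atoh7, whose promoter lay wholly inside a P2 H3K4me3 peak and in no SOX peak. Capitals mark the SOX core, searched as ACAAT or ACAAAG on both strands. Sequences run 5′ to 3′ on the strand of the gene.
Neurog2 (chr3:127632886-127633135, plus strand): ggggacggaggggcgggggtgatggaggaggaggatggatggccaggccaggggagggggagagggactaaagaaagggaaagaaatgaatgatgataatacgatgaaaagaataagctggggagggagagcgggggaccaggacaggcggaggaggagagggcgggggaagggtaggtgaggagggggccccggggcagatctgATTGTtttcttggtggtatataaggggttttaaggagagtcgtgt
Olig2 (chr16:91225300-91225549, plus strand): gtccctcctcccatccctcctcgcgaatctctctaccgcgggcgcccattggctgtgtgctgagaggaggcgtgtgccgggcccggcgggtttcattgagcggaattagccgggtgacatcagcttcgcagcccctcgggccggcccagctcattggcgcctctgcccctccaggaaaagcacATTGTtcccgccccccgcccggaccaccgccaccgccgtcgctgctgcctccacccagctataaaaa
Neurod1 (chr2:79456637-79456886, minus strand): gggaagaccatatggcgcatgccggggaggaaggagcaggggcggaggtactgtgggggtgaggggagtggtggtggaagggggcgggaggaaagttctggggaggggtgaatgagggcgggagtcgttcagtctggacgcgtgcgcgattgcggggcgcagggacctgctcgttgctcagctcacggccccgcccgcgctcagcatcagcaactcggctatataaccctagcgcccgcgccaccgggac
Neurod4 (chr10:130280255-130280504, minus strand): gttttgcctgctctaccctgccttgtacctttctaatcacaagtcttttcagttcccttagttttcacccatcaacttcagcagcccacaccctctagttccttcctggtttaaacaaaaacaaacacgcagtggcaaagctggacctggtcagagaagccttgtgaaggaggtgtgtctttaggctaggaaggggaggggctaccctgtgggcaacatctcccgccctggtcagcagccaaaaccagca
Atoh7 (chr10:63099535-63099784, plus strand): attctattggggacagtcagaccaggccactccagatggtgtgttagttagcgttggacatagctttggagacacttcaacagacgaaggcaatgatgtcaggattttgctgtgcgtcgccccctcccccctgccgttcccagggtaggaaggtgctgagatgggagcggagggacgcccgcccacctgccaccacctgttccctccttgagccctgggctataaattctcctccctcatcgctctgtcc
The SOX core was found in Neurog2, from -45 to -41 relative to the start site, and in Olig2, from -67 to -63, each as ATTGT, the reverse complement of ACAAT. The other windows shown hold no capitals, and neither did those of Neurod2, Ptf1a and Bhlhe23 hold a match. Of 32841 promoter windows of this length in the table, 38.8% held the core, so 2 of 8 members is a count of letters and marks no binding site. The E-box, searched as CANNTG, was found 3 times each in Atoh7 and Neurod2, 1 time each in Neurod1 and Bhlhe23, and not in Neurog2, Neurod4, Olig2 or Ptf1a, against 66.2% of all windows with at least 1. No SOX core match overlapped an E-box.

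At P2, SOX9 peaks lay at 5 of the 9 genes, namely Neurog2, Olig2, Neurod1, Neurod4 and Bhlhe22, while 27.7% of all protein-coding genes had one. SOX8 peaks lay at 2 of the 9, Neurog2 and Bhlhe22, against 15.1% of all genes. At P17, SOX9 peaks lay at 2 of the 9, Neurod1 and Neurod2, against 15.7%, and SOX8 peaks at 0 of the 9, against 13.0%. The bHLH genes are short, from 1496 to 12103 bp. Among the 8961 genes no longer than the longest of them, the background was 20.6% for P2 SOX9, 11.7% for P2 SOX8, 14.2% for P17 SOX9 and 11.7% for P17 SOX8. With so low a background, 0 of 9 for P17 SOX8 is no result about these genes. The counts of 2 of 9 for P2 SOX8 and for P17 SOX9 are near the shares of all genes.

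**Figure D1:**
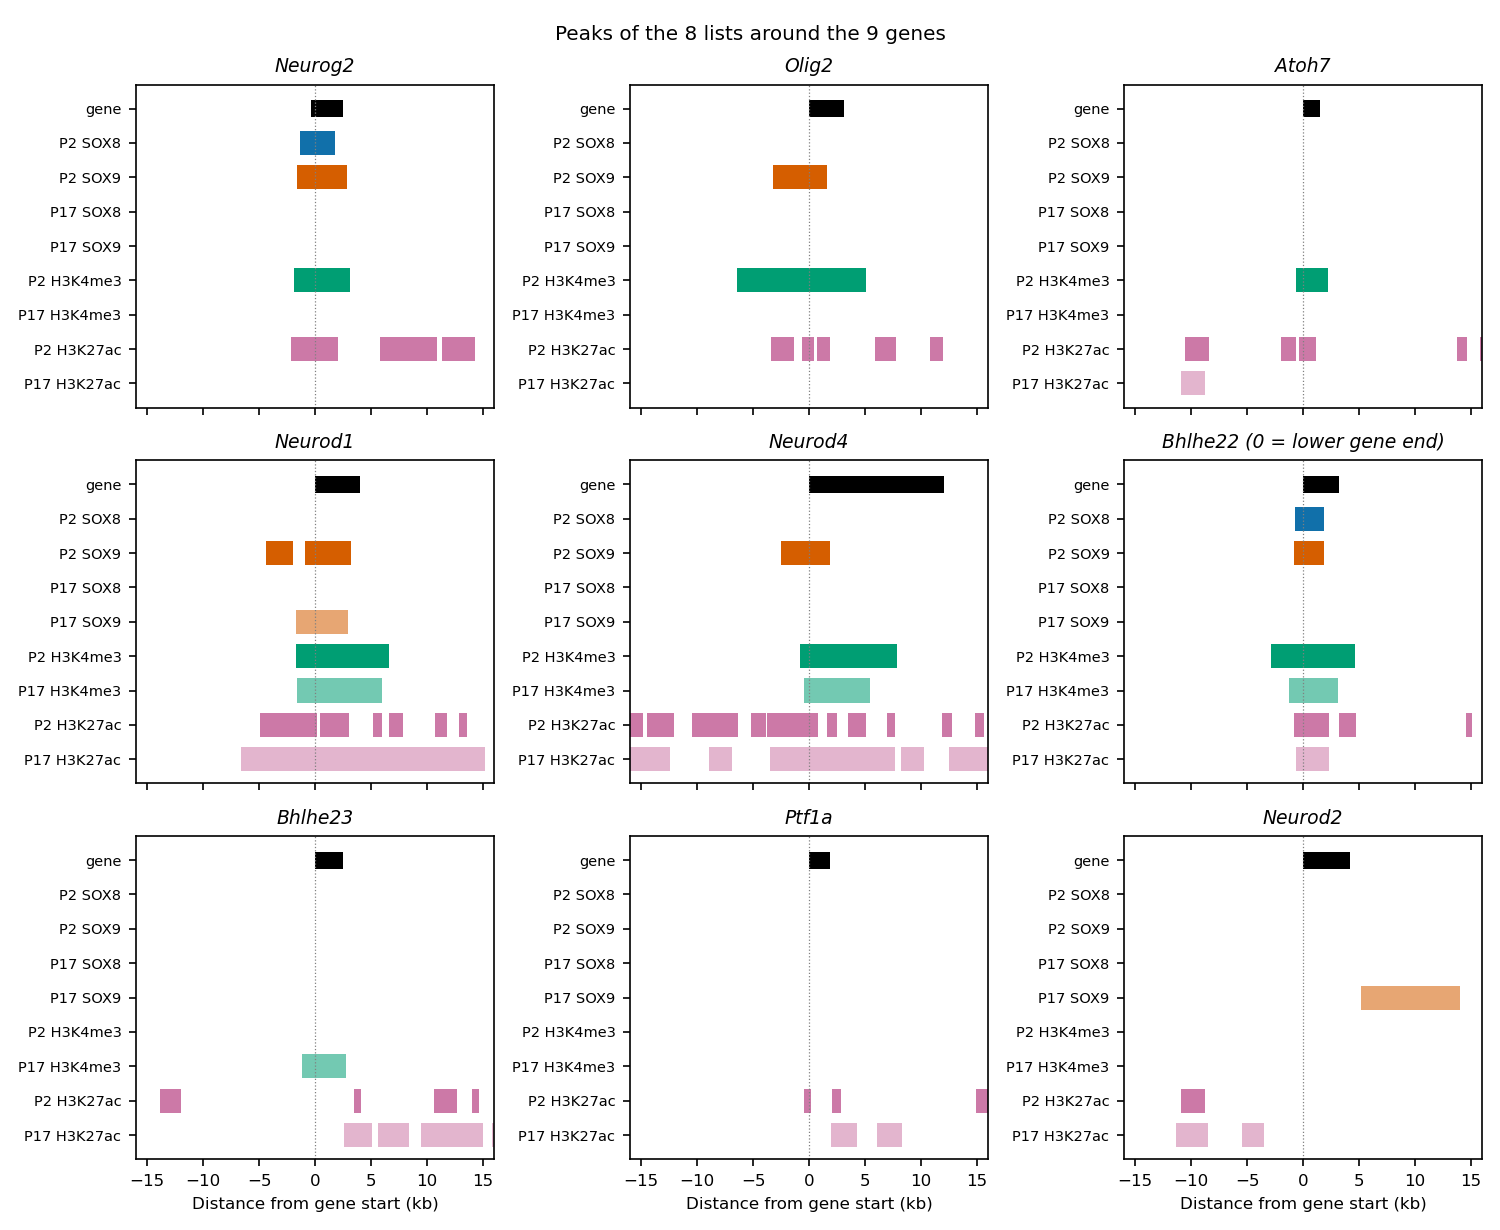
Peaks of the 8 lists (rows, coloured by target and paler at P17) around each of the 9 genes (black bar), by distance from the gene start in kb with transcription running to the right. Bhlhe22, which has no start site in the promoter table, is drawn from its lower gene end. P2 SOX9 peaks sit over the gene start in Neurog2, Olig2, Neurod1 and Neurod4, and the P17 SOX9 peak at Neurod2 starts 5150 bp past the start site.

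All 5 genes with a P2 SOX9 peak also carried P2 H3K4me3, and Atoh7 was the only H3K4me3 gene of the 6 without SOX9. Of all 6073 genes with a P2 SOX9 peak, 5750 also had P2 H3K4me3, so having both is the usual state. Among all genes with P2 H3K4me3, SOX9 lay at 53.3% and SOX8 at 29.8%, beside 5 of 6 and 2 of 6 members. The 3 members without P2 H3K4me3 (Neurod2, Ptf1a and Bhlhe23) had no P2 SOX peak, likewise the usual state of genes without the mark. At P17, SOX9 lay at 1 of the 4 members with H3K4me3, Neurod1, and SOX8 at none, where 27.4% and 23.1% of all such genes had a peak.

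Neurog2, a proneural factor that starts neuronal differentiation in progenitors, was a member with both SOX factors at P2. It lies on chromosome 3 at 127632733 to 127635636. The P2 SOX8 peak spanned 127631792 to 127634896 (3105 bp), and the P2 SOX9 peak 127631490 to 127635957 (4468 bp). The SOX8 peak lay wholly inside the SOX9 peak, and both lay wholly inside a P2 H3K4me3 peak of 5012 bp. The SOX8 peak was wider than 86.3% and the SOX9 peak wider than 92.3% of their lists. H3K27ac covered 5888 bp of the Neurog2 window at P2, with 1 peak of 4193 bp over the start site and 1 of 5103 bp that began 5806 bp past it. At P17 none of the 4 targets had a peak within 50 kb of Neurog2, and the nearest H3K4me3 peak was 78420 bp away, beside Larp7.

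Bhlhe22 was the other member with both factors at P2. It lies on chromosome 3 at 18054325 to 18057514. Its SOX8 peak (18053572 to 18056212, 2641 bp) and its SOX9 peak (18053495 to 18056198, 2704 bp) shared 2627 bp, which is 99.5% of the SOX8 peak. Both were absent at P17, as at Neurog2. Unlike Neurog2, Bhlhe22 kept marks at P17: 100% of the bases of its P2 SOX9 peak were still inside H3K4me3 and 92.8% inside H3K27ac. The sites of Neurog2 and Bhlhe22 thus had SOX8 and SOX9 at P2 with different marks at P17. SOX9 was also found at 95.8% of all genes with P2 SOX8, so its presence at both is the usual state.

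Olig2, a factor of neurogenic progenitors, lies on chromosome 16 at 91225550 to 91228677. Its P2 SOX9 peak (91222319 to 91227187, 4869 bp) was wider than 94.6% of the list and was the widest SOX9 peak of the 9 genes at that age. It ran from -3231 to 1637 bp around the start site. It lay wholly inside a P2 H3K4me3 peak of 11554 bp, wider than 99.5% of that list. H3K27ac there was broken into 4 peaks that covered 6143 bp of the Olig2 window, and 79.8% of the SOX9 peak was covered by them. No P2 SOX8 peak lay within 50 kb, the nearest being 180511 bp away. At P17 no target had a peak within 50 kb of Olig2.

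Neurod1, which acts in photoreceptors and amacrine cells, was the member with SOX9 at both ages. It lies on chromosome 2 at 79452637 to 79456636, on the minus strand. At P2 it had 2 SOX9 peaks, a count reached by 3.56% of all genes. The promoter peak (79453440 to 79457511, 4072 bp) was wholly inside H3K4me3. The upstream peak (79458570 to 79460996, 2427 bp) lay from -4360 to -1934 relative to the start site, with no H3K4me3 and with H3K27ac over all of its bases. At P17 the promoter peak was found again (79453655 to 79458303, 4649 bp), covering 94.7% of the P2 promoter peak, and the upstream peak was not. The upstream bases were still wholly inside a P17 H3K27ac peak, which was 21888 bp wide. The P17 promoter peak was narrower than most of its list, wider than 38.4% of peaks, where the P2 one was wider than 88.8%. Neurod1 had no SOX8 peak within 50 kb, and the nearest were 582986 bp away at P2 and 2803862 bp away at P17.

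Neurod4, a factor of amacrine and bipolar cells, lies on chromosome 10 at 130268152 to 130280254, on the minus strand. Its P2 SOX9 peak (130278395 to 130282726, 4332 bp) ran from -2472 to 1859 bp around the start site. It reached beyond H3K4me3, which held 62.5% of its bases, into a P2 H3K27ac peak of 4550 bp. It was absent at P17, when H3K27ac covered 100% of the same bases and H3K4me3 53.5%. The nearest P17 SOX9 peak was 1718554 bp away. Neurod4, like Bhlhe22, thus had both marks within 5 kb and no SOX peak at P17.

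Neurod2, a factor of amacrine cells, had a SOX9 peak at P17 only. The gene lies on chromosome 11 at 98325415 to 98329645, on the minus strand, and the peak (98315611 to 98324495, 8885 bp) lay past its far end, 920 bp from the gene. The peak was wider than 90.3% of the list and overlapped no H3K4me3 or H3K27ac peak of either age, no SOX8 peak and no protein-coding gene. Of all P17 SOX9 peaks, 13.9% overlapped neither mark of that age, with a median width of 6575.5 bp. Neurod2 had no H3K4me3 in its 5 kb window at either age. Its 1 P17 H3K27ac peak there (1944 bp) overlapped Gm33099, the neighbouring gene, whose end was nearer. Within 50 kb there were also 2 P17 SOX8 peaks, of 3147 and 4540 bp, whose nearest genes were Ppp1r1b and Stard3. Of the 8885 bp, 4081 lay inside the 5 kb window, and the peak was not counted with the gene body alone, with peaks trimmed to 500 bp or with at least 50% of the peak inside.

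Atoh7, Ptf1a and Bhlhe23 had no SOX peak within 50 kb in any of the 4 SOX lists, as did 48.6% of all genes. Within 5 kb, 66.1% of all genes had none. For Atoh7 the nearest SOX peaks of the 4 lists lay 73356 to 74209 bp away, all nearest to Pbld2. For Ptf1a they lay 209070 to 209555 bp away, all nearest to Otud1. For Bhlhe23 they lay 112275 to 114799 bp away, all nearest to Ythdf1. For each of these 3 genes, the nearest peaks of all 4 lists thus had the same other gene as their nearest gene.

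**Figure D2:**
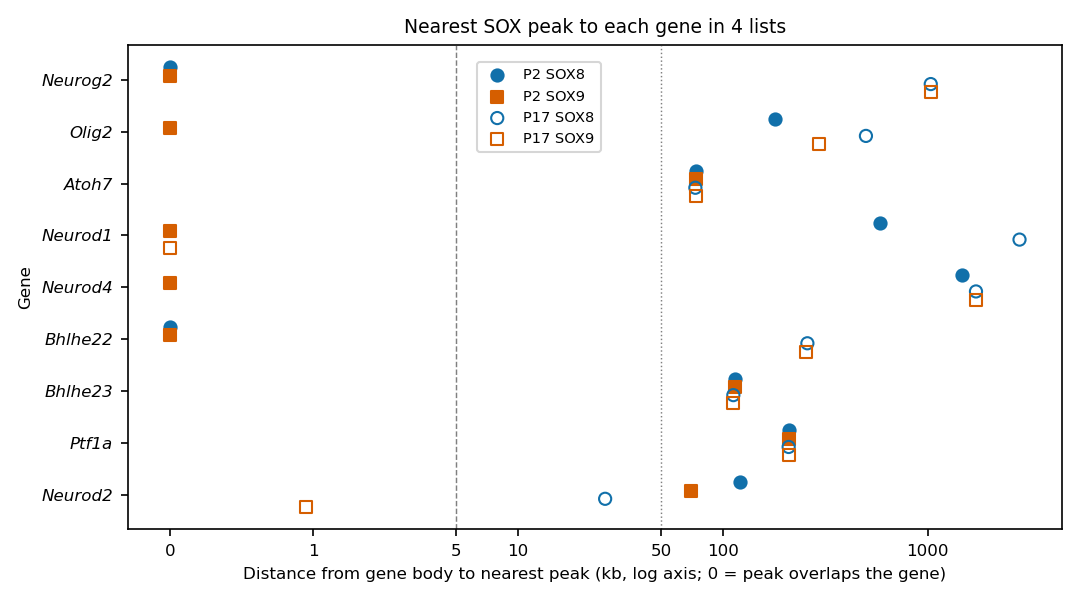
Distance in kb (log axis, 0 where a peak overlaps the gene) from each of the 9 genes to the nearest peak of the 4 SOX lists, with circles for SOX8, squares for SOX9, filled at P2 and open at P17, and lines at 5 kb (dashed) and 50 kb (dotted). Peaks either overlap the gene or, with the P17 Neurod2 peaks at 920 and 26607 bp as the exceptions, lie beyond 50 kb.

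**Figure D3:**
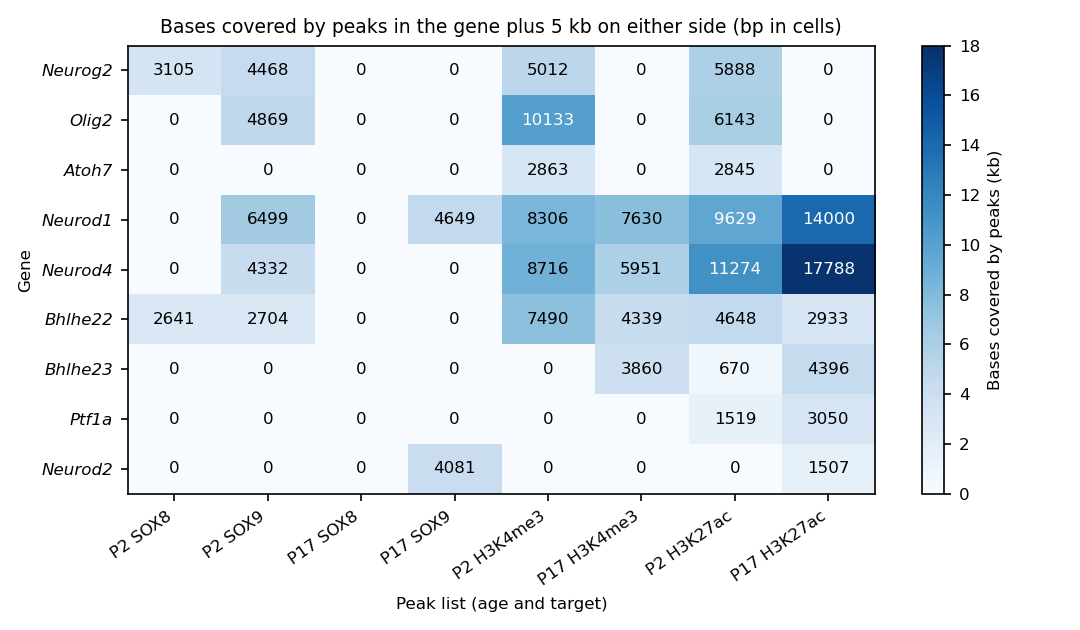
Bases covered by peaks in each gene plus 5 kb on either side (rows, in bp), in each of the 8 lists (columns). Neurod4 has the highest value, 17788 bp of P17 H3K27ac, and the P17 SOX8 column is 0 in all 9 genes.

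By covered bases, shown in the plot of all 8 lists, P2 SOX9 was highest at Neurod1: 6499 bp at Neurod1, 4869 bp at Olig2, 4468 bp at Neurog2, 4332 bp at Neurod4 and 2704 bp at Bhlhe22. Neurod1 leads because of its upstream peak, since its promoter peak alone has 4072 bp. The median over the 9 genes was 2704 bp, and that over all genes was 0. Among genes with a P2 SOX9 peak the median was 2642 bp, so Bhlhe22 was near it and the other 4 were above it. The 6 SOX9 peaks at these genes had a median width of 4202 bp, beside 2668.5 bp for the whole list. All 6 overlapped P2 H3K27ac, as did 99.4% of the list, and 5 of 6 overlapped H3K4me3, as did 79.8%. With age, SOX9 was present at P2 and absent at P17 in 4 of the 5, where 58.9% of all genes with a P2 peak had none at P17. For SOX8 it was 2 of 2, where this share was 46.4%. Of the 2 members with P17 SOX9, Neurod2 had none at P2, as had 27.6% of all genes with P17 SOX9. SOX peaks at Müller glia markers differed between the ages in the same direction: P2 SOX9 peaks lay at 3 of 4 and P17 SOX9 peaks at 0 of 4, with Aqp4 lacking a peak at both ages. The shares of all genes were 27.7% and 15.7%, so 0 of 4 at P17 is no result about these markers. Among markers of other cells, Aif1 of microglia had SOX8 and SOX9 at both ages. Best1 of pigment epithelium had SOX9 at P2 alone. The 9 retinal progenitor and neuron markers did not go 1 way. SOX9 was at P17 alone in 3 of them, among them the photoreceptor markers Nrl and Rcvrn. It was at both ages in 4 and at P2 alone in 2. The part of such cells in the results for the bHLH genes was not tested.

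**Figure D4:**
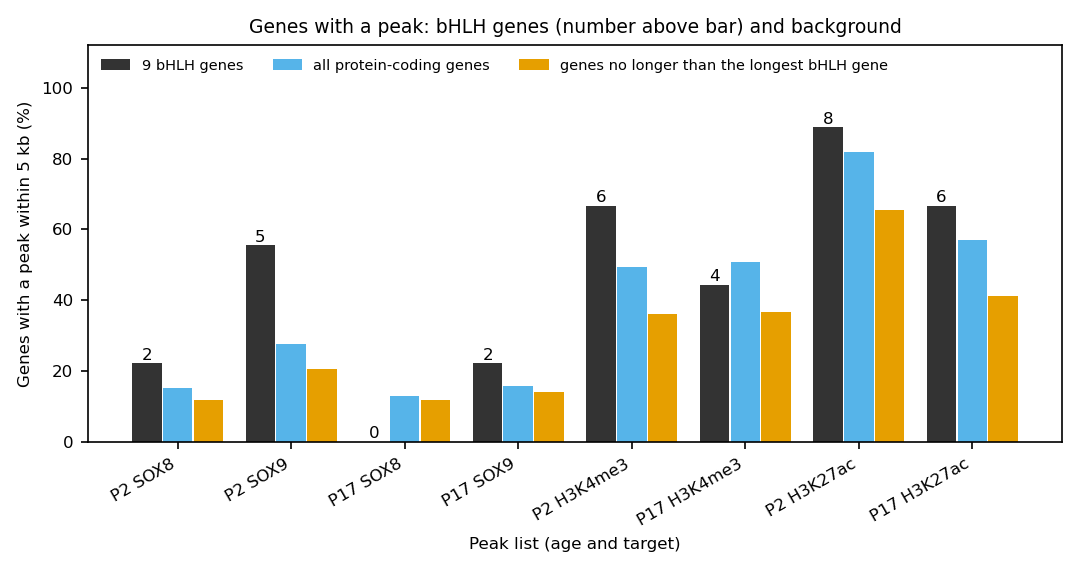
Share of genes with a peak within 5 kb (percent) in each of the 8 lists, for the 9 bHLH genes (black, with their number), all protein-coding genes (blue) and genes no longer than the longest bHLH gene (orange). The black bar is above both backgrounds for P2 SOX8, P2 SOX9 (5 genes), P17 SOX9, P2 H3K4me3 and H3K27ac at both ages. Of these, P2 SOX8 and P17 SOX9 (2 genes each) and P2 H3K27ac (8 genes) are near the share of all genes. The black bar is between the backgrounds for P17 H3K4me3 and at 0 for P17 SOX8.

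H3K4me3 divided the members into 4 sets, shown with H3K27ac in the plot of both marks by age. It was present at P2 and absent at P17 in 3 members, Neurog2, Olig2 and Atoh7, which are the genes of progenitors and early-born ganglion cells. It was present at both ages at Neurod1, Neurod4 and Bhlhe22, and at P17 alone at Bhlhe23, the rod bipolar gene. Ptf1a and Neurod2 had none at either age. Over all genes with P2 H3K4me3, 6.91% had none at P17, beside 3 of 6 members. Over all genes with P17 H3K4me3, 9.82% had none at P2, beside 1 of 4 members. In all, 6 of 9 members had the mark at P2, against 36.2% of the genes no longer than the longest member, and 4 of 9 at P17, against 36.7%. With only the wider 50% of each list, 2 members had a P2 and no P17 peak, since the Atoh7 peak, wider than 23.5% of its list, was left out.

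The P2 H3K4me3 peaks were wide at 5 of the 6 genes. They measured 11554 bp at Olig2, 8716 bp at Neurod4, 8306 bp at Neurod1, 7490 bp at Bhlhe22, 5012 bp at Neurog2 and 2863 bp at Atoh7. The list as a whole had a median of 3542 bp, which the first 5 exceeded and Atoh7 did not. Of the 3 genes with the mark at both ages, H3K4me3 covered 7630 bp at Neurod1, 5951 bp at Neurod4 and 4339 bp at Bhlhe22 at P17. The ratio of P17 to P2 covered bases was 0.919, 0.683 and 0.579 in the same order, beside a median of 1.05 over the 10043 genes with H3K4me3 at both ages. Only 3.05% of those genes had a lower ratio than Bhlhe22 and 6.13% a lower ratio than Neurod4. At Bhlhe23 the P17 peak (chromosome 2, 180774168 to 180778027, 3860 bp) ran from -1127 to 2732 bp around the start site, and the nearest P2 H3K4me3 peak was 61441 bp away, beside Dido1.

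H3K27ac was present at P2 and absent at P17 at the same 3 members, Neurog2, Olig2 and Atoh7, 3 of the 8 with a P2 peak. Of all genes with a P2 peak, 30.7% had none at P17. The count of 3 of 8 is near that share and is no result about these genes. Markers of other cells had H3K27ac at P2 alone as well: 3 of 4 for microglia (Cx3cr1, Csf1r and P2ry12), 3 of 4 for endothelium (Cdh5, Cldn5 and Tek), 2 of 4 for pigment epithelium (Tyr and Mitf) and 1 of 4 for Müller glia (Aqp4). Their part in the state of the 3 members was not tested. The mark was present at both ages at Neurod1, Neurod4, Ptf1a, Bhlhe22 and Bhlhe23. It was present at P17 alone at Neurod2, 1 of the 6 with a P17 peak, a state of 0.553% of all genes with one. That state rests on 1507 bp of the peak over Gm33099. The peak was not counted at 1 kb, with the gene body only or with peaks nearest to the member only. Within 50 kb, Neurod2 had H3K27ac at P2 too. In all, 8 of 9 members had a P2 peak, against 81.8% of all genes and 65.6% of the short ones, and 6 of 9 a P17 peak, against 57.0% and 41.3%. At Neurod1 the 4 P2 peaks covered 9629 bp of the window, and 1 P17 peak covered all 14000 bp of it. At Neurod4 the covered bases were 11274 bp in 8 peaks at P2 and 17788 bp in 3 peaks at P17. At Bhlhe23 they were 670 and 4396 bp, and at Ptf1a 1519 and 3050 bp. The ratio of P17 to P2 covered bases was 1.45 at Neurod1, 1.58 at Neurod4, 2.01 at Ptf1a, 6.56 at Bhlhe23 and 0.631 at Bhlhe22, beside a median of 0.698 over 12412 genes. The first 4 of these genes thus had more covered bases at P17 than at P2, and Bhlhe22 fewer.

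**Figure D5:**
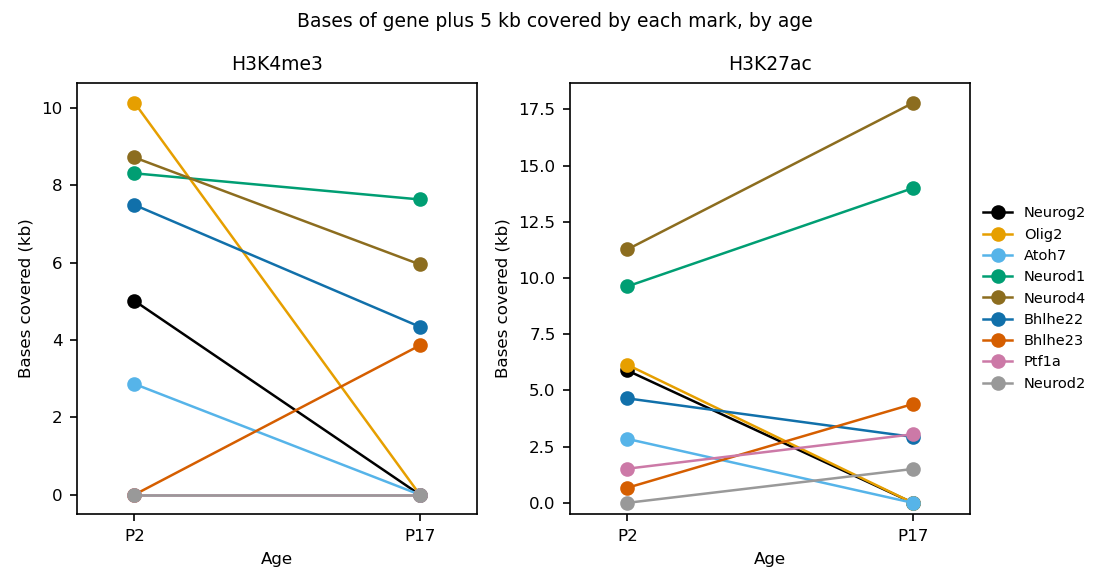
Bases of the gene plus 5 kb covered by H3K4me3 (left) and H3K27ac (right) in kb, at P2 and P17, with a line for each of the 9 genes. Neurog2, Olig2 and Atoh7 end at 0 at P17 in both panels, where their points lie over each other, Ptf1a and Neurod2 stay at 0 for H3K4me3, and Neurod1 and Neurod4 hold the most H3K27ac at both ages.

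The P2 list of H3K27ac is far longer than the P17 list. When only the 29909 widest P2 peaks were used, as many as at P17, only Neurog2, Neurod1 and Neurod4 had a P2 H3K27ac peak, and only Neurog2 had one at P2 and none at P17. The P2 H3K27ac peaks of Ptf1a (643 and 876 bp) and Bhlhe23 (670 bp) were narrower than the list's median of 1166 bp.

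At the second distance, 50 kb, the P2 SOX counts stayed at 5 members for SOX9 and 2 for SOX8, while the shares of all genes were 46.2% and 28.8%. The P17 counts were 2 for SOX9 and 1 for SOX8, Neurod2, against 28.2% and 24.8%. The 6 P2 SOX9 peaks and 2 P2 SOX8 peaks within 50 kb were those within 5 kb, and the nearest gene end of each belonged to the member. H3K4me3 within 50 kb was found at 7 members at P2 and 5 at P17, against 65.5% and 66.7% of genes. The added member was Neurod2 at both ages, through a peak over Ppp1r1b and Stard3. H3K27ac within 50 kb was found at 9 members at P2 and 7 at P17, against 91.1% and 72.0% of genes. Atoh7 was the member added at P17, with 3 peaks of 1771 to 2313 bp, of which the nearest lay 8730 bp before its start site.

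Related genes were taken from lists by function. Among other neural bHLH genes, Atoh8 had P2 SOX9 and P2 H3K4me3, neither of them at P17, and no SOX8 at either age. Nhlh2 had H3K4me3 and H3K27ac at both ages and no SOX peak. Neurod6, Olig1, the neighbour of Olig2, and Olig3 had H3K27ac at P2 alone and none of the other targets. Neurog1, Neurog3 and Atoh1 had no peak in any list.

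Partners and inhibitors of bHLH factors were counted too. All 3 E protein genes, Tcf3, Tcf4 and Tcf12, which encode the common partners, had P2 SOX9, against 27.7% of all genes and 53.3% of those with P2 H3K4me3. They also had H3K4me3 at both ages, against 49.3% of all genes at P2 and 50.9% at P17. These shares were not matched for gene length, and Tcf4 and Tcf12 are long. P2 H3K27ac alone covered 191774 bp of the Tcf4 window and 80682 bp of the Tcf12 window. Of 10 genes for HLH inhibitors and repressors (Id1 to Id4, Hes1, Hes5, Hes6, Hey1, Hey2 and Heyl), 9 had P2 SOX9 and 8 had P2 SOX8. All 10 had P2 H3K4me3, and among all genes with that mark 53.3% had P2 SOX9 and 29.8% P2 SOX8, against 27.7% and 15.1% of all genes. Heyl had neither, and Hey2 had SOX9 alone. At P17, Hes5, Hes6 and Hey1 had SOX9, and Hes5 and Hes6 had SOX8. Id1, Id2 and Id3, whose products take E proteins away from proneural factors, had H3K4me3 at P2 and not at P17, as did Heyl.

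Of 8 genes downstream of the members in retina, 5 had P2 SOX9: the Notch ligand genes Dll1, Dll3 and Dll4, and Tfap2a and Prox1 of amacrine and horizontal cells. These 5 were among the 6 of 8 with P2 H3K4me3, and the shares to set beside them are again 27.7% of all genes and 53.3% of those with the mark. Dll1 had P2 SOX8 and, as the only 1 of the 8, P17 SOX9. Pou4f2, a ganglion cell factor regulated by Atoh7, had no peak in any list. Isl1 had H3K4me3 at P17 alone, as Bhlhe23 did, with 15402 bp covered.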

How the data were processed

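The deposited files are 8 peak lists, 1 for each target and age. Every row holds the position of 1 peak, and the deposited score field was 0 in every row. The submitters' processing notes name Bowtie2, SEACR and GRCm38, without versions. The threshold, the use of the IgG libraries and the way replicates were combined are not given in the sources used here, and the IgG libraries and reads were not analysed here. Depth is not known. Lists made at other depths or thresholds would hold other numbers and widths of peaks.

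From these files, overlaps with genes were counted with Python 3.11.15, numpy 2.4.6 and pandas 2.3.3, with positions counted from 1. Genes are protein-coding genes of the RefSeq table of GRCm38.p6 on the main chromosomes. A peak's nearest gene is that whose end is closest to the peak's centre. Promoter sequences and start sites are those of RefSeq (GRCm38.p6), and for Neurod4, which has 2 start sites there, the outer one was used. The genes most like a member are the 3 with the smallest mean absolute difference in log2(covered bases + 100) over the 8 lists, found for each member with a SOX peak within 5 kb. Named genes are the members, 4 lists of related genes, marker genes, the genes most like a member and the genes nearest to a peak. Some genes of these lists are not reported here. The members and lists were chosen with earlier results of these data known. Overlap and motif counts were tested on simulated data against a direct count.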

Additional observations from a re-analysis of the deposited data

How the results depend on the processing

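Counts of members were recomputed under distances of 1 kb, 50 kb and 0 kb (gene body only), with the wider 50% of each list, with peaks trimmed to 500 bp around their centres, with at least 50% of the peak inside the window, with peaks nearest to the member only, and with the lists of both ages limited to equal numbers of widest peaks. In 83 of 92 recomputed counts the value was within 1.5 times the reported one, among them every alternative of the P2 SOX8, P2 SOX9 and H3K4me3 counts. Equal numbers could not change the P2 H3K4me3 count, since that list (9134 peaks) is shorter than the P17 list (9629 peaks). The P17 counts were not recomputed with equal numbers. The P17 SOX8 count went from 0 to 1 at 50 kb, through Neurod2. The P17 SOX9 count went from 2 to 1 with the gene body only, with trimmed peaks and with 50% of the peak inside, which left Neurod1, and to 1 with the wider 50% of peaks, which left Neurod2. The P17 H3K27ac count of 6 became 3 with the gene body only and 2 with the wider 50% of peaks. With equal numbers of widest peaks, the P2 H3K27ac count went from 8 to 3 and the count with P2 and without P17 H3K27ac from 3 to 1. These lists name no replicate, so no replicate could be left out and no paired analysis was possible because each target has 1 list at each age.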

Other observations

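The genes most like each member over the 8 lists, by covered bases, are given here, and their likeness in these lists follows from that choice. For Neurog2 the nearest were Ngfr and Mdk, with mean absolute log2 differences of 0.0714 and 0.121. For Olig2 they were Vax1, Zic4 and Zic1 (0.0732, 0.112 and 0.119), which like Olig2 are transcription factor genes. For Neurod1 they were Pkmyt1, Cxxc4 and Spsb2 (0.185, 0.191 and 0.198), for Neurod4 Mest, Pcmt1 and Ndufv2 (0.145, 0.159 and 0.196), and for Bhlhe22 Calm2, Ranbp6 and Set (0.16, 0.173 and 0.179). For Neurod2 the nearest was Tmem190 (0.135), followed by Ntf5 (0.522) and Ihh (0.563).

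The exact state of presence and absence in the 8 lists was shared by 25 genes for Neurog2, itself included, 75 for Olig2, 278 for Atoh7, 311 for Neurod1, 693 for Bhlhe23, 884 for Bhlhe22, 1296 for Ptf1a and 1690 for Neurod4. For Neurod2 it was shared by 2, Neurod2 and Tmem190, and it depends on the P17 H3K27ac peak over Gm33099 that reaches into the 5 kb window.

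Beyond the 5 kb window, the downstream side of Neurod1 held a P17 H3K27ac peak of 79514 bp over Cerkl, the neighbouring gene, wider than 99.7% of its list. A P17 H3K4me3 peak of 4651 bp lay inside it, beside an end of Cerkl, and no P2 H3K4me3 peak was found there. At Neurod4, P17 H3K27ac covered 46.7% of the gene plus 50 kb on either side, in 8 peaks. At Neurog2, 16 P2 H3K27ac peaks lay within 50 kb and covered 30.9% of that window, and none lay there at P17.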
